A study of Mus musculus with 12 samples.

Results

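The serpins, a superfamily of protease inhibitors and their non-inhibitory relatives, were examined in the livers of mice exposed to second-hand smoke (SHS) and of mice that afterwards recovered in clean air. Every probe set whose gene symbol in the platform annotation begins with Serpin was taken, pseudogenes included. This gave 59 of the 45037 probe sets on the array, a probe set being a group of short probes that reads the transcripts of a gene. Of the 59, 56 name 1 gene and 3 name several serpins. The former read 40 of the 18193 genes that have a probe set of their own, and 6 other serpins (Serpina1a, Serpina1d, Serpina1e, Serpinb9e, Serpinb9f and Serpinb9h) were read only jointly with relatives. Serpina3c, Serpina3g, Serpina3k, Serpina3m and Serpine2 were not analysed here.

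All mice were C57BL/6 males, 6 to 8 weeks old at the start, and each of the 12 Affymetrix arrays held liver RNA of 1 mouse. Control mice (replicates 1 to 4) breathed filtered air as a sham treatment, SHS4m mice (replicates 66 to 69) were exposed whole body to SHS for 4 months, and SHS4m+1m recovery mice (replicates 70 to 73) had the same exposure and then 1 month in clean air. Sham mice with and without recovery were kept in the study, but the labels do not say which of them the 4 control arrays are, so exposure and an age difference of 1 month cannot be told apart against 1 of the exposed groups. With whole-body exposure some smoke particles may also be taken up through the skin or swallowed in grooming. Whole liver was extracted, so that fewer cells of a type and less RNA per cell cannot be told apart.

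A typical serpin presents a flexible reactive centre loop as bait, and a protease that cuts the loop is trapped in an inactive complex. Hepatocytes secrete many serpins of clade A and of the clades of antithrombin and antiplasmin into plasma, where they restrain proteases of neutrophils, coagulation, fibrinolysis and complement. Clade B serpins mostly stay inside cells. Some family members bind no protease and serve as hormone carriers or chaperones.

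Signals are given as log2 of the deposited intensity, with values under 32 raised to 32, so that the lowest log2 value is 5. A gene is called where the adjusted p from limma is under 0.05 over all probe sets. A gene with several probe sets is represented by the one with the highest mean signal among those naming no other gene. The family is spread widely in this tissue: 31 of the 59 probe sets were above the floor on all arrays, 26 were at the floor on some arrays, and 2, both of Serpinb5 (maspin), were at the floor on all. By gene, 22 of 40 were above the floor on all arrays, namely 9 of 14 in clade A, 7 of 18 in clade B and 6 of 8 in the other clades.

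Of the 40 serpin genes, 4 were called between SHS4m mice and controls. Serpina4-ps1, Serpina12 and Serpina9 were lower and Serpina3n was higher. Across all genes 3.73% were called higher and 3.74% lower in this comparison. After recovery the only gene called against controls was Serpina6, which was higher, where 1.37% of all genes were called higher and 1.14% lower. Between the exposed groups 5 serpins were called. Serpina4-ps1, Serpina12, Serpina9 and Serpina6 were higher after recovery and Serpina3n was lower, against 2.01% of all genes called higher and 1.68% lower. These 5 genes all belong to clade A, which has 14 genes on the array. By probe set the counts were 7, 1 and 7 of 59, or 11.9%, 1.69% and 11.9%, against 5.4%, 2.07% and 2.54% of all probe sets. Under the threshold of the study, a p under 0.05 (taken here as unadjusted) with a 2-fold change, they were 5, 1 and 6, against 2.47%, 1.37% and 1.7% of all probe sets. The median log2 difference over the 40 genes was 0.0 in SHS4m mice, 0.075 after recovery and 0.1206 between the exposed groups, beside -0.0086, 0.0 and 0.0 over all genes. The centre of the family thus lay close to that of the array. The comparisons with controls share the 4 control arrays.

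The starts of called genes are shown because members of 1 chromosomal cluster moved in different directions. Of the 5 called genes, 2 had an entry in the RefSeq promoter table. Each sequence below holds the 250 bases before the annotated start in GRCm38.p6, written 5′ to 3′ on the strand of the gene, with matches to searched motifs in capitals. They are chr12:104044444-104044693 (minus strand) for Serpina12, which fell, and chr12:104406458-104406707 (plus strand) for Serpina3n, which rose.
Serpina12: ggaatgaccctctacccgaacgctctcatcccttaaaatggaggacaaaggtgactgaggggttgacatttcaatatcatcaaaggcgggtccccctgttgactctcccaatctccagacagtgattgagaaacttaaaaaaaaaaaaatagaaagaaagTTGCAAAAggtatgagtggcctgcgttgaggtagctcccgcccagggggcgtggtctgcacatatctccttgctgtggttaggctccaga
Serpina3n: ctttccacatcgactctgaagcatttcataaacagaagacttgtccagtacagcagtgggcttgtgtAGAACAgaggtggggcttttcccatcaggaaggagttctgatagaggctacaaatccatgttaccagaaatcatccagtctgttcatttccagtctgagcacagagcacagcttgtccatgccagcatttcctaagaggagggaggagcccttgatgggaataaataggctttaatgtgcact
6 motifs were searched on both strands. AGAACA is part of the DNA site bound by the glucocorticoid receptor, and GTTAAT is part of the site bound by HNF1. The others were TTCNNNGAA (STAT), CACGTG (E-box), TTATGTAA (D-box) and TTGCNNAA (C/EBP). The Serpina12 sequence held 1 match, TTGCAAAA to the C/EBP letters, 83 to 90 bases before the start. Serpina3n held AGAACA, 178 to 183 bases before the start. Among 32851 promoters of this length, 9.56% held the C/EBP letters and 16.1% held AGAACA. The shares were 7.02% for TTCNNNGAA, 6.02% for CACGTG, 0.819% for TTATGTAA and 6.43% for GTTAAT. A match of letters is a description and shows no binding.

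Serpina4-ps1, a transcribed pseudogene related to kallistatin, had the greatest fall among the serpins in SHS4m mice. Its brightest probe set (1448092_x_at) read 11.31, 10.30, 10.45 and 9.37 in control replicates 1 to 4. In SHS4m replicates 66 to 69 it read 6.21, 6.37, 6.31 and 7.85, and in recovery replicates 70 to 73 it read 10.20, 10.67, 8.47 and 9.76. All SHS4m arrays lay below all others, while recovery and control arrays overlapped. SHS4m replicate 69 stood apart from the other SHS4m arrays, and recovery replicate 72 was the lowest of its group. The log2 difference from controls was -3.68 (standard error 0.577, adjusted p = 0.00704 from limma), a 12.8-fold fall. After recovery it was -0.59 (95% interval -1.88 to 0.71, adjusted p = 0.738), and the rise from SHS4m to recovery was 3.09 (adjusted p = 0.0263).
The other 2 probe sets of Serpina4-ps1 had the same pattern. For 1444296_a_at the fall was 2.94 on the log2 scale (a difference of -2.94, adjusted p = 0.0100) and the rise to recovery 2.75 (adjusted p = 0.0245). For 1444297_at the difference was -3.51 (adjusted p = 0.00462) and the rise 3.23 (adjusted p = 0.0117), with SHS4m replicate 68 at the floor. In all 3 probe sets control replicate 1 was the highest and control replicate 4 the lowest of the controls. The array marks 1448092_x_at as one whose probes can also match other transcripts. Recovery in 1444297_at was called under all 19 alternative settings, but that of 1448092_x_at was lost under 7 and that of 1444296_a_at under 6. These losses came without SHS4m replicates 66, 67 or 68 or recovery replicates 70, 71 or 73 (adjusted p = 0.0545 to 0.0718), and for 1448092_x_at also with only the 8 arrays compared (0.0702).

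Serpina12 encodes vaspin, a secreted serpin first known from visceral fat that inhibits a kallikrein. Controls read 11.58, 10.65, 11.86 and 11.40 on its probe set 1421092_at, SHS4m mice 9.22, 9.45, 8.78 and 9.49, and recovery mice 10.27, 10.26, 11.24 and 11.38. The SHS4m arrays were below every array of the other groups. Recovery arrays 70 and 71 were below all controls, and arrays 72 and 73 were within the range of the controls. The SHS4m difference was -2.14 (standard error 0.338, adjusted p = 0.00719), a 4.40-fold fall. After recovery the difference from controls was -0.58 (95% interval -1.34 to 0.17, adjusted p = 0.535). The rise of 1.55 from SHS4m to recovery was close to the threshold (adjusted p = 0.0462). It was lost under 14 of 19 settings, among them leaving out any array except control replicate 2, with an adjusted p of up to 0.1125. A second probe set (1421091_at) was at the floor on 9 arrays and read 5.33, 6.61 and 5.44 on control replicates 1 and 3 and recovery replicate 72. It was not called (-0.48, adjusted p = 0.517).

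Serpina9 encodes centerin, known from B cells of germinal centres, and was dim in all groups. Its intensity (1429285_at) was 97.5, 87.1, 94.0 and 110.1 in controls, 16.6, 7.68, 18.9 and 15.8 in SHS4m mice, and 78.2, 87.0, 73.2 and 83.0 after recovery. The 4 SHS4m values were all under the floor of 32. The lowest control lay only just above the highest recovery array. On the log2 scale the controls read 6.61, 6.44, 6.56 and 6.78 and the recovery arrays 6.29, 6.44, 6.19 and 6.37, against 5 throughout in SHS4m mice. With the floor in place Serpina9 was at least 3.03-fold lower in SHS4m mice than in controls (log2 -1.60, adjusted p = 1.755e-05) and at least 2.51-fold higher after recovery (log2 1.33, adjusted p = 0.000103). The recovery difference from controls was -0.27 (adjusted p = 0.0971). Its fall and its return were called under all 19 alternatives. At the floor the SHS4m values had a standard deviation of 0, against 0.141 in controls and 0.108 after recovery. The model pools the 3 groups, so the floor makes the spread behind these p-values smaller than that of the other groups alone.
Of the 6 B and plasma cell markers 5 were measured. Their summed intensity was 570.7 to 922.8 in controls, 443.2 to 562.9 in SHS4m mice and 576.0 to 811.5 in recovery mice, and none of the 5 was called in any comparison. In SHS4m mice Ms4a1 differed by -1.05 (adjusted p = 0.112), Cd79a by -0.77 (0.513), Jchain by -0.48 (0.338), Cd79b by -0.26 (0.644) and Mzb1 by 0.11 (0.863), so that 4 of the 5 had values below 0 and 1 above. The part of these cells in the Serpina9 result was not tested.

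Serpina3n, a mouse antichymotrypsin of the acute phase that inhibits granzyme B and leukocyte elastase, was the serpin that rose. Control arrays read 11.45, 11.70, 11.46 and 11.68 (1419100_at), SHS4m arrays 12.69, 12.05, 12.35 and 12.69, and recovery arrays 11.77, 11.63, 11.77 and 11.76. All 4 SHS4m arrays were above the other 8, and the recovery arrays overlapped the controls. The rise was 0.87 (standard error 0.137, adjusted p = 0.00704), or 1.83-fold. After recovery the difference from controls was 0.16 (95% interval -0.14 to 0.47, adjusted p = 0.682), and Serpina3n fell by 0.71 from SHS4m to recovery (adjusted p = 0.029). That fall was lost under 9 of 19 settings. They were log2(value + 16) without a floor, only the 8 arrays compared, and leaving out SHS4m replicate 66, 68 or 69 or any recovery array (adjusted p = 0.0587 to 0.0922). The Serpina3 genes are close paralogs, and how well the probes of this set tell them apart was not tested. Serpina3a (0.27, adjusted p = 0.883) and Serpina3i (0.0, adjusted p = 1), which were at the floor on 4 and 11 arrays, were not called.

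Serpina6 encodes corticosteroid-binding globulin, the plasma carrier of corticosterone, and inhibits no known protease. On 1448506_at the controls read 12.59, 12.76, 12.32 and 12.30, SHS4m mice 12.98, 13.11, 12.75 and 12.76, and recovery mice 13.51, 13.82, 13.68 and 13.55. Every recovery array was above every other array. SHS4m and control arrays overlapped only through control replicate 2, which was level with SHS4m replicates 68 and 69. The difference from controls was 1.15 after recovery (standard error 0.125, adjusted p = 0.00523), a 2.22-fold rise, and 0.41 in SHS4m mice (95% interval 0.13 to 0.69, adjusted p = 0.101). The rise of 0.74 from SHS4m to recovery was called (adjusted p = 0.0173), but not without recovery replicate 71 (adjusted p = 0.0516). Serpina6 thus differed from the 4 other called serpins in being furthest from controls after recovery.
Serpina7, the other hormone carrier of the family (thyroxine-binding globulin), read 10.73 to 11.74 in controls, 10.97 to 12.11 in SHS4m mice and 10.74 to 11.28 after recovery. It was not called in any comparison (0.14 and -0.25 from controls, adjusted p = 0.910 and 0.789), and its ranges overlapped throughout.

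**Figure D1:**
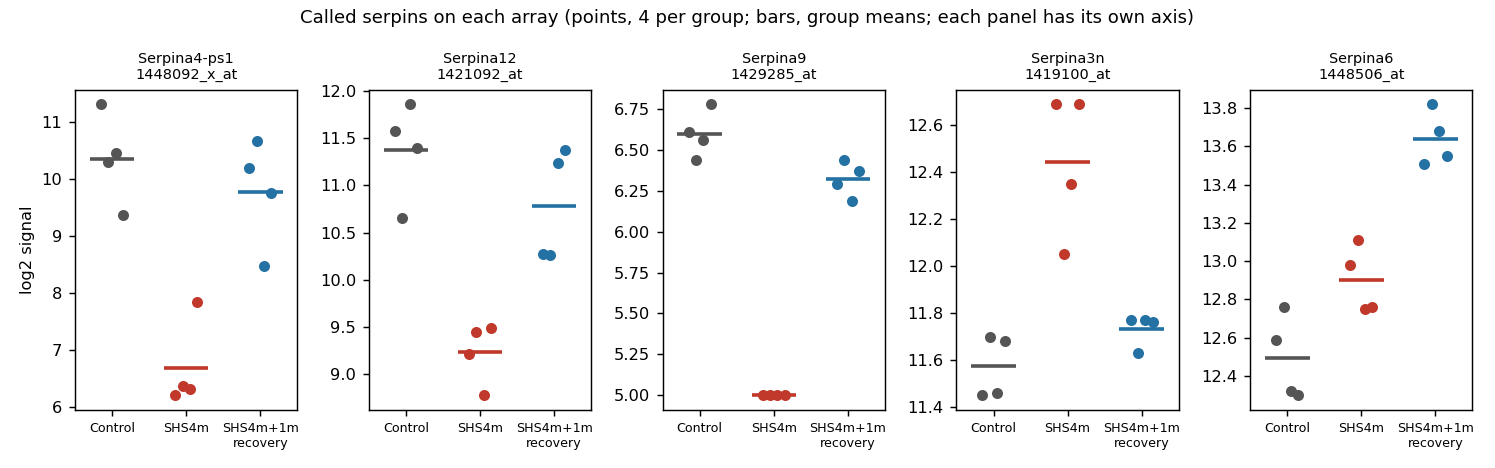
Log2 signal (vertical axes, a separate range in each panel) of the 5 called serpins on each of the 12 arrays, with points for arrays and bars for the means of 4. Serpina4-ps1, Serpina12 and Serpina9 are lowest in all SHS4m arrays, Serpina3n is highest there at 12.05 to 12.69, and Serpina6 is highest after recovery at 13.51 to 13.82.

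In the RefSeq annotation (GRCm38.p6) the called genes all lie in 1 cluster on chromosome 12. It runs from Serpina10 to Serpina3n over 41 annotated genes, of which 28 are serpins and 13 were read here. The other 27 serpin genes read here lie elsewhere, and none was called. The 3 genes that fell in SHS4m mice are consecutive serpins in this order, Serpina9, Serpina12 and Serpina4-ps1, with a long non-coding RNA (Gm31271) between the last pair. Serpina11, the neighbour on the side of Serpina9, differed by -0.21 in SHS4m mice (95% interval -0.56 to 0.15, adjusted p = 0.612). On the other side Serpina5, the protein C inhibitor, was at the floor on 11 arrays (0.08, adjusted p = 0.612) and could hardly show a fall. Serpina3n and Serpina6, which moved differently, lie towards opposite ends of the cluster.

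**Figure D2:**
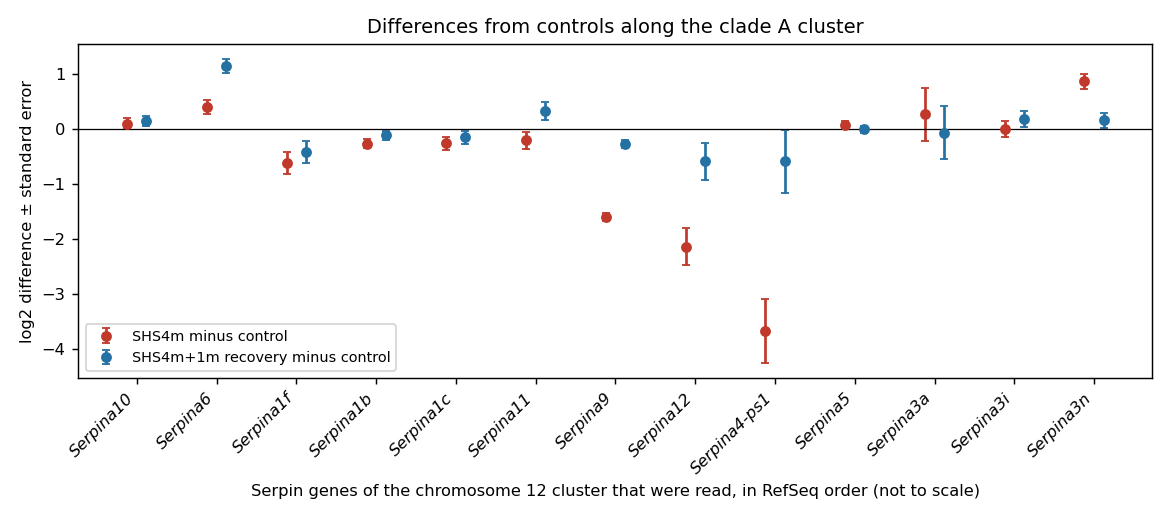
Log2 differences from controls (vertical axis, with standard errors from limma) of the 13 serpins read in the chromosome 12 cluster, in gene order and not to scale, for SHS4m and for recovery. The SHS4m points of Serpina9 (-1.60), Serpina12 (-2.14) and Serpina4-ps1 (-3.68) lie below the rest, and that of Serpina3n (0.87) is the highest of the SHS4m series.

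The Serpina1 genes encode alpha-1-antitrypsin, the main plasma inhibitor of neutrophil elastase, and are so alike that probe sets cannot be relied on to part them. The jointly named set of Serpina1e, Serpina1c and Serpina1b (1449321_x_at) read 13.73, 13.71, 13.73 and 13.63 in controls, 13.03, 13.09, 13.43 and 13.34 in SHS4m mice, and 13.66, 13.55, 13.84 and 13.45 after recovery. The SHS4m arrays were below the other 8, by 0.48 against controls on average (a difference of -0.48, adjusted p = 0.0285), which is a 1.39-fold fall. That call was lost under 9 of 19 settings (adjusted p of up to 0.0915), including the loss of any control array or of SHS4m replicate 66 or 67. The other 4 probe sets had SHS4m differences of -0.24 to -0.26. These were -0.26 for Serpina1b (1451513_x_at, adjusted p = 0.116), -0.24 for its second set (1418282_x_at, 0.442), -0.26 for Serpina1c (0.319) and -0.24 for Serpina1d and Serpina1a together (1420553_x_at, 0.0570). Over the 8 hepatocyte markers the median SHS4m difference was -0.29. The highest intensity on an array was 74490 to 84774 in controls and 60775 to 66109 in SHS4m mice. Whether these bear on the Serpina1 differences was not tested. SHS4m arrays were below all controls in 4 of the 5 Serpina1 probe sets, but how often this occurs over all probe sets was not counted. Only 1 of the 5 was called. Under some alternatives 2 more were, 1451513_x_at (adjusted p = 0.00999 to 0.0488) and 1420553_x_at (0.0319 to 0.0456), namely with only the 8 arrays compared or without recovery replicate 72 or 73. These sets share probes or targets and are not separate measurements. After recovery the differences from controls ran from -0.16 to 0.03 with none called, and recovery replicates 72 and 73 were the highest and the lowest of their group in all 5 sets. Serpina1f, a relative known from the epididymis, was at the floor on 7 arrays, among them all SHS4m arrays (-0.61, adjusted p = 0.119).

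**Figure D3:**
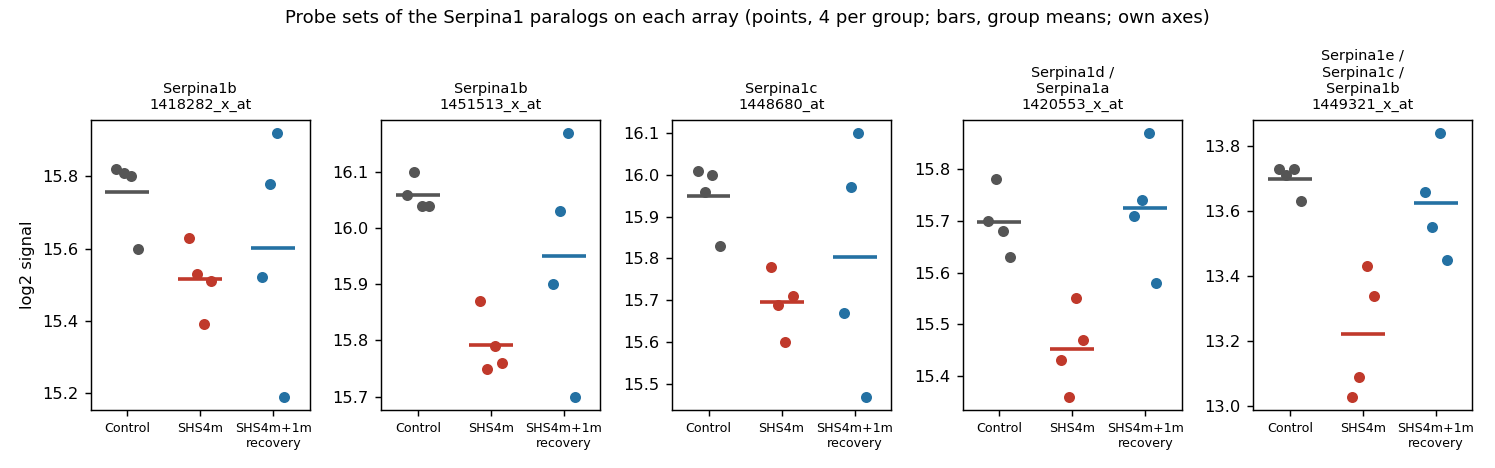
Log2 signal (vertical axes, a separate narrow range in each panel) of the 5 probe sets of the Serpina1 paralogs on each array, with bars for the means of 4. SHS4m points are below all control points in each panel but that of 1418282_x_at, and in that panel the recovery points spread from 15.19 to 15.92.

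Inhibitors of coagulation, fibrinolysis and complement differed little. Antithrombin (Serpinc1) read 15.25 to 15.34 in controls and 15.09 to 15.18 in SHS4m mice, with no overlap, and 15.13 to 15.63 after recovery. Its difference of -0.15 in SHS4m mice was not called (adjusted p = 0.456). Heparin cofactor II (Serpind1), the protein Z-dependent inhibitor Serpina10, antiplasmin (Serpinf2) and C1 inhibitor (Serping1) differed by 0.08, 0.10, 0.12 and 0.02 in SHS4m mice and by 0.12, 0.15, 0.13 and 0.08 after recovery. None of these was called, and the 95% intervals in SHS4m mice reached at most 0.31 from 0 (Serpina10 and Serpinf2). Serpinf1 (pigment epithelium-derived factor) and the collagen chaperone Serpinh1, neither of which inhibits a protease, differed by 0.09 and -0.13 in SHS4m mice (adjusted p = 0.655 and 0.780). Serpina11 differed by -0.21 and, after recovery, by 0.33 (adjusted p = 0.412). The neuroserpin gene Serpini1 was at the floor on 3 arrays (-0.49, adjusted p = 0.252), and Serpini2 on 8. Of the 8 genes outside clades A and B, limma called 0 in each comparison, with 1, 2 and 1 at an unadjusted p under 0.05 for SHS4m, recovery and the exposed groups against each other.

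Clade B had no called gene among its 18, with 1, 2 and 3 at an unadjusted p under 0.05 in limma in the same order of comparisons. At least 1 array was at the floor for 11 of them. Serpinb8, an inhibitor of furin, had the lowest SHS4m difference of the clade. It read 7.33, 7.05, 7.14 and 6.45 in controls, 6.66, 5.14, 6.47 and 5.94 in SHS4m mice, and 7.21, 7.35, 7.08 and 7.56 after recovery (1458882_at). The recovery arrays were all above the SHS4m arrays, and SHS4m and controls overlapped. The differences were -0.94 in SHS4m mice (adjusted p = 0.142) and 1.25 between the exposed groups (adjusted p = 0.0824), and -0.47 and 0.64 for its second probe set. Serpinb6b was lower in all recovery arrays (6.71 to 7.97) than in all controls (8.05 to 8.54), by -0.86, without a call (adjusted p = 0.156). Serpinb1a, which inhibits neutrophil elastase, read 7.51 to 9.78 over the 4 recovery arrays, and its differences of 0.30 and 0.24 from controls had wide 95% intervals (-0.74 to 1.33 and -0.79 to 1.28). Serpinb9, the inhibitor of granzyme B, differed by 0.19 and -0.19 (adjusted p = 0.698 and 0.746), and Serpinb6a by -0.03 and 0.25 (adjusted p = 1 and 0.306). Serpinb6e and Serpinb9b, the other clade B genes above the floor on all arrays, differed by -0.23 and -0.32 in SHS4m mice. Serpinb1b, Serpinb2, Serpinb3a, Serpinb5, Serpinb6c, Serpinb7, Serpinb9c, Serpinb9d, Serpinb9g, Serpinb11 and Serpinb12 read at most 6.41 on any array. The joint probe set of Serpinb9h, Serpinb9g, Serpinb9e and Serpinb9f read 5 to 6.33.

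**Figure D4:**
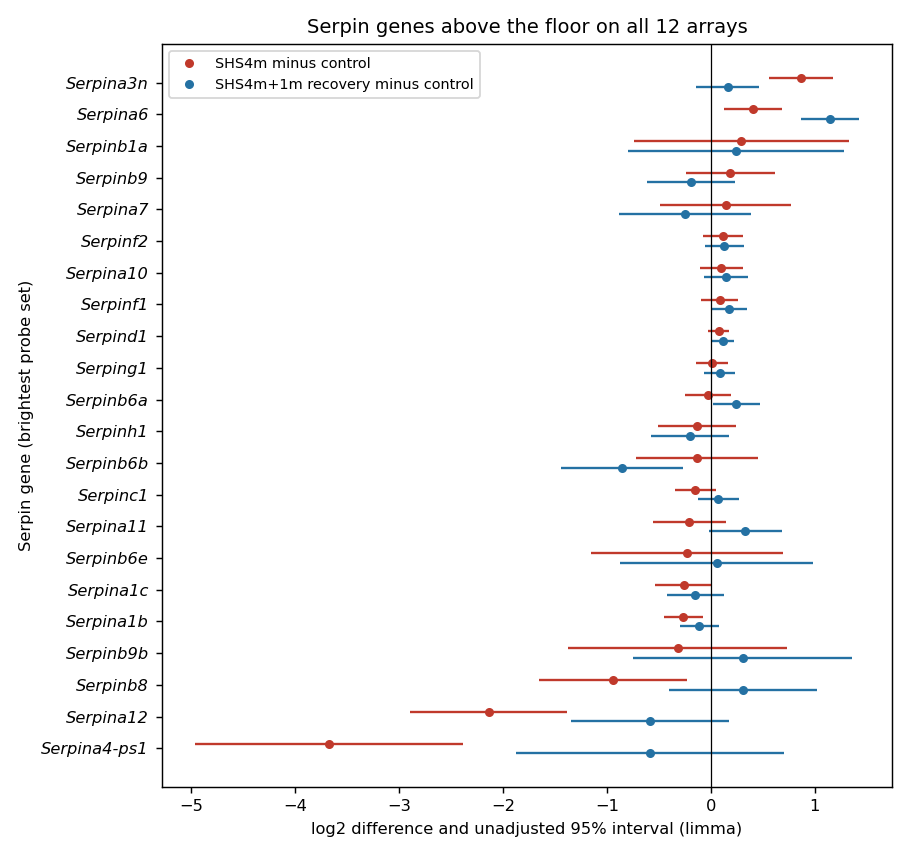
Log2 differences from controls (horizontal axis) with unadjusted 95% intervals from limma for the 22 serpin genes above the floor on all 12 arrays, in SHS4m and recovery mice. Most intervals cross or lie close to 0, while Serpina4-ps1 and Serpina12 stand to the left in SHS4m mice and Serpina6 to the right after recovery.

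Genes that work beside the serpins were read from 4 lists. For comparison with each list, 3.73% of all genes were called higher and 3.74% lower in SHS4m mice. After recovery these shares were 1.37% and 1.14%, and between the exposed groups 2.01% and 1.68%. The medians over all genes were -0.0086, 0.0 and 0.0 in the same order of comparisons. Of 24 measured proteases that serpins act on (25 listed), 4 were higher and 1 lower in SHS4m mice, 4 were higher after recovery, and 3 were higher and 1 lower between the exposed groups. Hpn, which encodes the cell-surface protease hepsin, rose by 0.49 in SHS4m mice (adjusted p = 0.00349) and 0.56 after recovery (adjusted p = 0.00683). Coagulation factor VII (F7) rose by 0.48 and 0.47 (adjusted p = 0.0227 and 0.0478). The activator of hepatocyte growth factor, Hgfac, fell by 0.43 in SHS4m mice (adjusted p = 0.00217) and was 0.38 above controls after recovery (adjusted p = 0.0101). The lysosomal protease Ctsl rose by 0.39 in SHS4m mice alone among the comparisons with controls (adjusted p = 0.00419), and then fell by 0.32 (adjusted p = 0.0197). The list medians were -0.0288, 0.1166 and 0.0832.
Of 27 measured inhibitors of other families (30 listed), 5 were higher and 1 lower in SHS4m mice, 3 were higher and 1 lower after recovery, and 1 was lower between the exposed groups. Timp3, an inhibitor of metalloproteases, rose by 1.08 in SHS4m mice (adjusted p = 0.00376) and 0.85 after recovery (adjusted p = 0.0236). Tfpi2, a Kunitz-type inhibitor, fell by 0.76 and 0.57 (adjusted p = 0.0013 and 0.0119). The hyaluronan-binding chains Itih5 and Itih3 rose by 0.70 and 0.65 in SHS4m mice (adjusted p = 0.0303 and 0.00129), and Itih3 then fell by 0.44 (adjusted p = 0.0129). The list medians were 0.0172, 0.0804 and 0.0703.

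Genes of corticosteroid and thyroid hormone handling bear on the carriers Serpina6 and Serpina7. Of 17 measured (19 listed), 2 were higher and 2 lower in SHS4m mice, 1 was higher after recovery and 1 was higher between the exposed groups. Fkbp5, a glucocorticoid-induced chaperone partner, read 8.94 to 9.53 in controls, 11.02 to 11.65 in SHS4m mice and the recovery arrays lay between these ranges, from 9.76 upwards. It rose by 2.09 (adjusted p = 0.00262) and by 1.29 (adjusted p = 0.0406). Slco1a1, an organic anion transporter that also carries hormones, fell by 1.85 in SHS4m mice (adjusted p = 0.00527) and rose by 1.53 to recovery (adjusted p = 0.0225). The gluconeogenic enzyme Pck1 rose by 1.20 and malic enzyme Me1 fell by 0.79 in SHS4m mice (adjusted p = 0.0126 and 0.0355). The list medians were -0.0401, 0.034 and 0.0581.
Serpina3n is itself an acute phase gene, and 19 of 20 listed acute phase genes were measured. In SHS4m mice 5 of them were higher, none was called after recovery, and 5 were lower between the exposed groups. The lipocalin Lcn2 rose by 3.56 and the orosomucoid Orm3 by 2.16 on the log2 scale (adjusted p = 0.0149 and 0.0182), and Orm2 rose 6.57-fold (adjusted p = 0.00612). Amyloid P component (Apcs) rose by 0.79 (adjusted p = 0.00679). All 4 then fell from SHS4m to recovery, with log2 differences of -3.19 for Lcn2, -2.57 for Orm3, -0.85 for Apcs and -2.65 for Orm2 (adjusted p = 0.0392, 0.0154, 0.00886 and 0.0117). The list medians were 0.1663, 0.0313 and -0.1966.

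Cell type markers were read beside these results. All 8 hepatocyte markers were measured and none was at the floor, with a summed intensity of 445400 to 506200 in controls, 386800 to 432500 in SHS4m mice and 348000 to 539400 after recovery. Of the 8, Fabp1 was called (-0.48 in SHS4m mice, adjusted p = 0.0375). The macrophage and Kupffer cell sum over 11 markers was 19550 to 24660, 15780 to 20250 and 17050 to 24450, with Marco higher by 1.90 and Clec4f lower by 0.51 in SHS4m mice (adjusted p = 0.0137 and 0.0173). No neutrophil marker of 8 was called in limma, and Camp and Cxcr2 were at the floor on all arrays. On the array of recovery replicate 72 the actin probe sets had a 3′ to 5′ ratio of 8.82, a measure of RNA breakdown, and on the others 3.24 to 4.64. That array was the highest of its group in 13 of the 31 serpin probe sets above the floor on all arrays (41.9%), and in 27.2% of all 20570 such probe sets. The part of cell composition or RNA quality in the serpin results was not tested. Without recovery replicate 72 the call of Serpina6 against controls held.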

How the data were processed

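Liver RNA of 12 mice was hybridised to Affymetrix mouse arrays, 4 per group. The authors summarised probe sets in Affymetrix Expression Console and deposited intensity values on a linear scale, with a trimmed mean of 500 after 2% was trimmed at each end. Which algorithm summarised them is not stated in the sources used. Values under 32 (29.85% to 33.52% of each array) were raised to 32 before log2, so that changes of dim transcripts are understated. After 64 control probe sets were left out, 45037 were fitted in limma 3.58.1 (R 4.3.3) as 1 model of the 3 groups, with lmFit and eBayes, and p-values, all two-sided, were adjusted by Benjamini-Hochberg for each of the 3 comparisons. The procedure was tested on simulated data. Groups came from the labels. Nothing states a batch, and 1 array was made per mouse, so 4 arrays per group limit the precision.

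Probe sets were named from the platform annotation. Of them 34945 name 1 gene, 932 several and 9160 none. Gene order and promoters are from RefSeq (GRCm38.p6). The members and gene lists were chosen with earlier results of these data known, and the study itself listed Serpina12, Serpina4-ps1 and Serpina6 from these arrays, so their calls are not independent evidence. Serpins were named in full where called at the adjusted p, and a fixed set of liver serpins was named whatever its change. Of other genes at most 4 a list were named, the called ones with the greatest change. The markers were B and plasma cell, hepatocyte, neutrophil, macrophage and Kupffer, T and NK cell, endothelial, stellate and fibroblast, cholangiocyte, platelet, red cell and exocrine pancreas genes. Beyond those in the text, Tek (endothelial) and Cela1 (exocrine pancreas) were called lower in SHS4m mice (-0.73 and -0.90). Cela1 was also called lower than controls after recovery (-0.65, adjusted p = 0.0171 from limma). Alternatives were other floors, scalings, filters, variance models, samples in the fit, call rules and leaving out each array.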

Additional observations from a re-analysis of the deposited data

Results flagged for a closer look

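In 77 groups of 4 arrays, over 26 serpin probe sets, 4 arrays stood apart from the others of their group, where chance alone marks about 1 group in 20. Control replicate 4 read 15.6 for Serpina1b (1418282_x_at), recovery replicate 71 read 11.63 for Serpina3n (1419100_at), SHS4m replicate 69 read 7.85 for Serpina4-ps1 (1448092_x_at), and control replicate 3 read 9.29 for Serpinb9 (1422601_at).

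The effects at the end of exposure and after recovery, both against controls, differed by the limma test of recovery minus SHS4m for 5 serpins. The log2 difference between them was 1.55 for Serpina12 (adjusted p = 0.0462) and -0.71 for Serpina3n (adjusted p = 0.029). For the 3 probe sets of Serpina4-ps1 it was 2.75, 3.23 and 3.09 (adjusted p = 0.0245, 0.0117 and 0.0263). For Serpina9 it was 1.33 (adjusted p = 0.000103). Serpina6 differed by 0.74 (adjusted p = 0.0173), and was the only one of the 5 whose distance from controls was greater after recovery.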

How the results depend on the processing

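The SHS4m calls of Serpina4-ps1 (all 3 probe sets), Serpina12, Serpina9 and Serpina3n, and the recovery call of Serpina6, held under all 19 alternatives run for each (adjusted p of up to 0.0318, 0.0236, 0.000864, 0.0361 and 0.0316), and none of the 24 listed differences of these probe sets and of 1449321_x_at reversed a call. No paired analysis was possible because the groups share no replicate numbers. Leaving out 1 array gave 6 to 9, 1 to 1 and 2 to 7 called serpin probe sets (SHS4m, recovery, and between the exposed groups), 4 to 5, 1 to 1 and 1 to 5 genes, and 15 to 24, 4 to 7 and 6 to 12 called members of the 4 related lists, which had 20, 9 and 11. Between the exposed groups the lowest counts of serpins, 2 probe sets and 1 gene, came without recovery replicate 71. With only the 8 arrays compared, the counts between the exposed groups were 4 probe sets, 2 genes and 7 list members, and 1 list member was called in recovery. Under log2(value + 16) 3 serpin genes were called between the exposed groups, and 13, 0 and 6 list members in the 3 comparisons. The floor at the 25th percentile gave 4 and 6 list members in recovery and between the exposed groups, and centring on the median gave 5 in recovery. The cause was not tested. Calls made under alternatives only were those of Serpinc1 (adjusted p = 0.0361 in SHS4m mice with only the 8 arrays compared, 0.0422 between the exposed groups with quantile normalization), Serpina1f (0.0116 without control replicate 2), and the Serpina1 sets 1451513_x_at and 1420553_x_at in SHS4m mice (0.00999 and 0.0456 with only the 8 arrays compared, 0.0488 and 0.0319 without recovery replicate 72, 0.0270 and 0.0341 without recovery replicate 73), with 1420553_x_at also between the exposed groups (0.0325 without recovery replicate 73). Signal under the floor limits what 28 of the 59 serpin probe sets can show.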
